A study of Mus musculus with 12 samples.

Results

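The 9 genes described here are the Toll-like receptor genes *Tlr1*, *Tlr2*, *Tlr3*, *Tlr4*, *Tlr6*, *Tlr7*, *Tlr8*, *Tlr9* and *Tlr13*. They were chosen by name, not by their values, though with earlier results of these data known. They belong to the 23133 genes of an RNA-seq table of mouse epididymal white adipose tissue (eWAT). *Tlr5*, *Tlr11* and *Tlr12* are not among them and are given further on. The male C57BL/6J mice were housed 1 per cage, started the diets at 5 weeks of age and were 21 weeks old after 16 weeks of feeding. The groups received a normal diet (ND), a high-fat diet (HFD), the HFD with an ethanol extract of chrysanthemum leaf at 1.5% of weight (CLE), or the HFD with the flavone luteolin at 0.003% of weight (LU). Both supplemented groups therefore also ate the high-fat diet. The libraries came from 3 mice per group, which the methods call representative, so 12 libraries were compared. RNA came from the whole fat pad, which holds adipocytes, blood vessels and immune cells.

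Toll-like receptors recognise microbial molecules and some molecules that damaged cells release. TLR2 works in pairs with TLR1 or TLR6 on the cell surface and binds bacterial lipopeptides. TLR4 binds lipopolysaccharide at the surface together with its partner MD-2, and saturated fatty acids have been discussed as a trigger of its signaling in fat. TLR3, TLR7, TLR8, TLR9 and TLR13 sit in endosomes and sense nucleic acids, and the protein UNC93B1 carries them there. Ligand binding recruits the adaptors MyD88 or TRIF and activates NF-κB and interferon regulatory factors. In adipose tissue most of these receptors are known from macrophages, and some, TLR4 among them, are also found in adipocytes and their precursors.

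*Tlr1* and *Tlr6* lie next to each other on chromosome 5 (GRCm38), *Tlr1* at 64924679-64933563 and *Tlr6* at 64952031-64960097, both on the minus strand. *Tlr7* (167304929-167330558) and *Tlr8* (167242696-167264329) are neighbours on the minus strand of chromosome X, which also holds *Tlr13* (106143204-106160493, plus strand). The other genes are *Tlr2* at chromosome 3, 83836272-83841767, *Tlr4* at chromosome 4, 66827584-66930284, *Tlr3* at chromosome 8, 45395665-45411080, and *Tlr9* at chromosome 9, 106222598-106226883. *Tlr1* and *Tlr6* are close paralogs, so reads could have been split between them, and their separate values are less certain than those of the other genes.

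The DNA just before 4 of the genes is printed because PU.1 or interferon regulatory factor letters were found there, in receptors that were called in each comparison with HFD. Each stretch is the part of a RefSeq promoter window (GRCm38.p6, 250 bases before to 50 bases after a start) that lies before the annotated gene, read 5′ to 3′ on the strand of the gene. Capitals mark matches, on either strand, to GAGGAAG, letters that PU.1, a transcription factor known from macrophages, binds, or to GAAANNGAA, a letter pattern of interferon regulatory factors.
Tlr1, chr5:64933564-64933808, minus strand: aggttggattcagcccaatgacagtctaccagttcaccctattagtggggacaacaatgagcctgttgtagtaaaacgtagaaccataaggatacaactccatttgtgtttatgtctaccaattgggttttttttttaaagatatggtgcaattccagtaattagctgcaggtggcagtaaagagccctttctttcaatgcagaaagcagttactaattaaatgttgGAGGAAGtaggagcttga
Tlr9, chr9:106222348-106222597, plus strand: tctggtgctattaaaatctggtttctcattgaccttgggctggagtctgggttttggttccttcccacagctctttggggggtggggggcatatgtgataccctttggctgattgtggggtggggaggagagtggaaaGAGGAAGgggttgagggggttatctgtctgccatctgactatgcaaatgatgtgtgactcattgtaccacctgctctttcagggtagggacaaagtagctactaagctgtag
Tlr13, chrX:106143025-106143203, plus strand: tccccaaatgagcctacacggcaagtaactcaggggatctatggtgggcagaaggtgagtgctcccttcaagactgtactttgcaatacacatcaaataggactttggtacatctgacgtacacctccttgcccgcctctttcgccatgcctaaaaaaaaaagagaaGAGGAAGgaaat
Tlr8, chrX:167264330-167264579, minus strand: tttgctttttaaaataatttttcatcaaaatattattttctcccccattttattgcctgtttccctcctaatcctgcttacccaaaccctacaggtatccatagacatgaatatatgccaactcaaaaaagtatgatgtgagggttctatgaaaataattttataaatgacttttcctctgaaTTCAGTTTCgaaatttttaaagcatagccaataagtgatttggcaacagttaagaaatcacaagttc

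Windows were found for 7 of the 9 genes, 9 windows in all. GAGGAAG was in 3 of the 9 windows (1 each of *Tlr1*, *Tlr9* and *Tlr13*), and 13.6% of the 32851 windows of all genes held it. GAAANNGAA was in 2 of the 9 windows (*Tlr6* and *Tlr8*), against 8.56% of all windows. GGGANTTTC, a letter pattern of NF-κB, was in 1 of the 9 windows (*Tlr3*), against 1.11% of all windows. *Tlr2*, called in the same directions as the 4 genes printed, held none of these letters in its window.

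Values are FPKM, fragments scaled by transcript length and by the mapped fragments of the library, as the authors deposited them, and the rows of each gene were summed. Because FPKM is per length, levels can be compared between genes. Read counts and depth are unknown. A gene was called when limma, fitted to log2(FPKM + 1) of all 12 libraries and 12814 genes, gave an adjusted p (Benjamini-Hochberg) below 0.05 with a change of more than 1.5-fold. All 9 receptors passed the filter of at least 1 FPKM in at least 3 libraries. *Tlr1* and *Tlr13* reached 1 FPKM only in the HFD, CLE and LU mice. Differences are given on this log2 scale with their standard error (SE), and understate the change of genes with low FPKM. An exact permutation test of 3 mice against 3 cannot give a two-sided p under 0.1.

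In HFD mice 7 of the 9 receptors were called higher than in ND mice, and *Tlr13* and *Tlr8* differed the most of the 9. *Tlr13* had the lowest mean of the 9 in ND mice, and these 2 genes had the 2 highest means in HFD mice. *Tlr4* and *Tlr3*, the 2 highest in ND mice, were higher by less than the fold limit. Over all genes tested, 14.9% were called higher with HFD. The median difference was 1.56 over the 9 receptors and -0.02 over all genes. In all 9 receptors the lowest HFD mouse lay above the highest ND mouse, which was so for 30.2% of all genes, and each exact permutation test gave the smallest possible p of 0.1. In whole tissue, more cells of a type and more RNA per cell cannot be told apart.

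**Figure D1:**
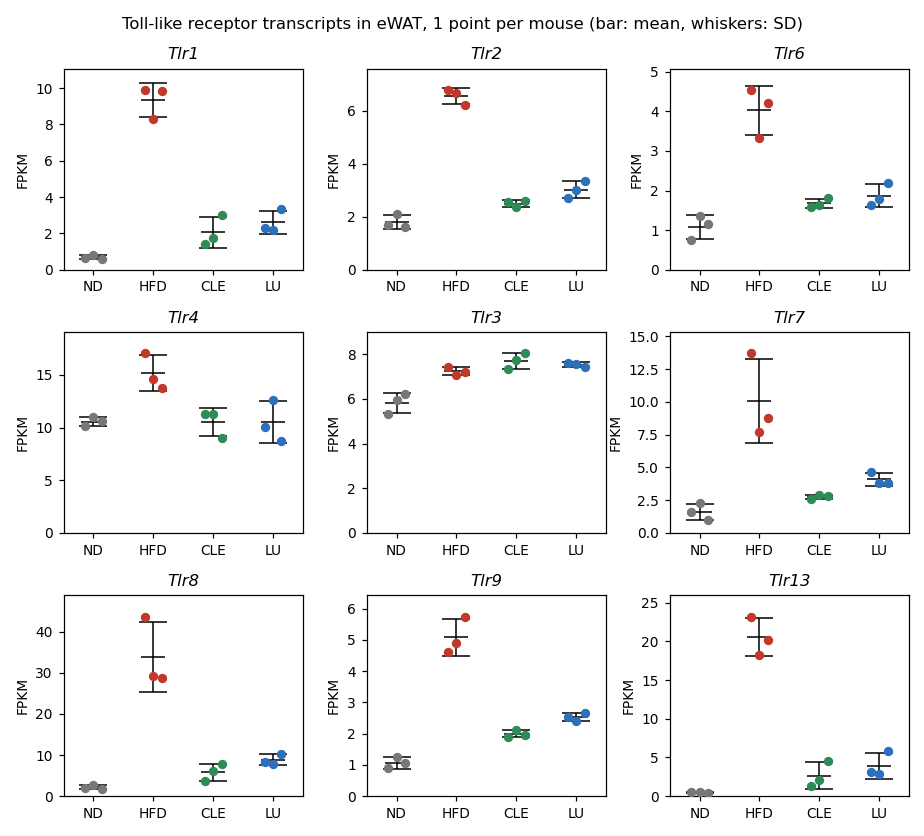
Levels of the 9 receptors in FPKM (vertical axes from 0, a different range in each panel) for the 3 mice of each group, 1 point per mouse, with the mean and SD. The HFD mice lie above the ND mice in every panel, and the CLE and LU mice lie between them for 7 receptors but not for Tlr3 and Tlr4.

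Among the surface receptors, *Tlr1*, the partner of TLR2 for triacylated lipopeptides, was at 0.66, 0.80 and 0.58 FPKM in the ND mice and at 9.89, 8.28 and 9.87 FPKM in the HFD mice. Its difference was 2.62 ± 0.18 (SE, limma adjusted p = 8.9e-07). *Tlr2*, the subunit shared by both receptor pairs, measured 1.70, 2.11 and 1.60 FPKM with ND and 6.78, 6.67 and 6.23 FPKM with HFD. The spread among HFD mice was small beside the distance to ND, and the difference was 1.44 ± 0.09 (adjusted p = 7.4e-07). *Tlr6*, the partner for diacylated lipopeptides, was at 0.76, 1.35 and 1.16 FPKM with ND and at 4.54, 3.34 and 4.21 FPKM with HFD, a difference of 1.27 ± 0.13 (adjusted p = 1.1e-05). By the summed rows, *Tlr1* exceeded *Tlr2* in each HFD mouse while *Tlr2* exceeded *Tlr1* in each ND mouse. This order rests on the sum, since 98.8% of the *Tlr1* level came from rows assembled from the reads, while *Tlr2* had 1 annotated row. The highest single row of *Tlr1* was at 3.06, 2.66 and 2.05 FPKM in the HFD mice, below *Tlr2*.

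*Tlr4*, the lipopolysaccharide receptor, had 10.1, 11 and 10.7 FPKM in ND mice and 17.0, 14.6 and 13.7 FPKM in HFD mice. The groups did not overlap, but the difference of 0.48 ± 0.13 (adjusted p = 0.011) was below the fold limit, so *Tlr4* was not called. Its 2 main rows behaved differently. The row of the annotated transcript ENSMUST00000048096 ran from 3.20 to 4.07 FPKM with ND and from 6.50 to 9.38 FPKM with HFD, while a longer row with the same exon chain ran from 4.18 to 6.12 FPKM and from 5.42 to 6.91 FPKM. Reads shared by such rows are divided by estimation, so the division is less certain than the sum.

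Among the endosomal receptors, *Tlr13*, which senses bacterial ribosomal RNA, was at 0.51, 0.52 and 0.44 FPKM in ND mice, the lowest of the 9 receptors. In HFD mice it was at 23.2, 18.3 and 20.2 FPKM. The ratio of the group means was 42, and the difference was 3.85 ± 0.28 (adjusted p = 1.5e-06). *Tlr8*, which senses breakdown products of single-stranded RNA, measured 2.10, 2.68 and 1.70 FPKM with ND and 43.7, 29.1 and 28.9 FPKM with HFD. HFD mouse 12 was above the other HFD mice, and the difference was 3.45 ± 0.23 (adjusted p = 7.8e-07). *Tlr7*, the other receptor for single-stranded RNA, was at 1.59, 2.24 and 0.98 FPKM with ND and at 13.7, 7.69 and 8.73 FPKM with HFD, a difference of 2.08 ± 0.20 (adjusted p = 8.8e-06). Of the *Tlr7* level in HFD mouse 12, 2.09 FPKM came from ENSMUST00000149507, a non-coding transcript listed at 0 in the other 11 libraries.

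*Tlr9*, the receptor for DNA with unmethylated CpG, had 0.89, 1.26 and 1.06 FPKM in ND mice and 4.61, 4.90 and 5.74 FPKM in HFD mice, a difference of 1.56 ± 0.09 (adjusted p = 7.2e-07). *Tlr3*, the sensor of double-stranded RNA, had 5.34, 5.93 and 6.20 FPKM with ND and 7.43, 7.08 and 7.21 FPKM with HFD. Its difference of 0.27 ± 0.07 (adjusted p = 0.0096) was the smallest of the 9 and below the fold limit, so *Tlr3* was not called.

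The make-up of the receptor set changed with these differences. The FPKM of the 9 receptors summed to 25.3 ± 2.26 (SD, n = 3) in ND mice and to 112 ± 16.6 in HFD mice. *Tlr3* and *Tlr4* together held 65.0% ± 4.27 of the sum with ND and 20.1% ± 1.51 with HFD. *Tlr8* and *Tlr13* together held 10.4% ± 1.45 and 48.5% ± 2.32. In CLE mice the sum was 37.7 ± 3.91 FPKM and *Tlr8* with *Tlr13* held 22% ± 7.44, and in LU mice the sum was 44.9 ± 2.48 FPKM and their share 28.2% ± 5.06. CLE mouse 11 (29.8%) and LU mouse 8 (33.9%) had the highest such share of their groups. The lowest shares were 14.9% with CLE and 24.4% with LU.

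**Figure D2:**
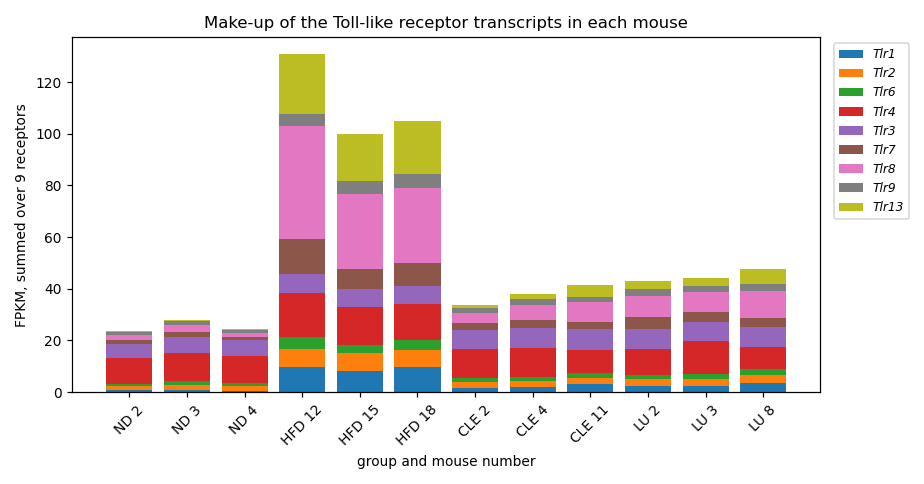
Sum of the FPKM of the 9 receptors (vertical axis, from 0) in each of the 12 mice, named by group and mouse number, with 1 color per receptor. The HFD bars reach 100 to 131 FPKM and are widest in Tlr8 and Tlr13, while the ND bars stay below 28 FPKM and consist mostly of Tlr4 and Tlr3.

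The order of the levels differed between groups. In ND mice it ran from *Tlr4* (10.6 FPKM) through *Tlr3* (5.82 FPKM), *Tlr8*, *Tlr2*, *Tlr7*, *Tlr6*, *Tlr9* and *Tlr1* to *Tlr13* (0.49 FPKM). From *Tlr8* to *Tlr9* each receptor overlapped the next in its range over the 3 mice, so their order is not resolved. In HFD mice it ran from *Tlr8* (33.9 FPKM) through *Tlr13*, *Tlr4*, *Tlr7*, *Tlr1*, *Tlr3*, *Tlr2* and *Tlr9* to *Tlr6* (4.03 FPKM), and only *Tlr7* and *Tlr1* overlapped as neighbours. In CLE mice *Tlr4* and *Tlr3* (7.70 FPKM) again led and *Tlr3* overlapped *Tlr8*, while *Tlr7*, *Tlr13*, *Tlr2*, *Tlr1* and *Tlr9* formed a run of overlapping neighbours. In LU mice *Tlr4* overlapped *Tlr8* (8.81 FPKM), *Tlr3* came next, and the same 5 receptors overlapped as neighbours. *Tlr6* was the lowest with HFD, CLE and LU.

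With CLE, the 7 receptors called with HFD were called lower than in HFD mice, against 10.2% of all genes called lower. The median difference was -1.11 over the 9 receptors and 0.01 over all genes. In 8 receptors every CLE mouse was below every HFD mouse, which was so for 26.2% of all genes. The HFD mice are shared by this comparison, the one with ND and the one with LU, so the 3 are not independent of each other.

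*Tlr13* measured 1.32, 2.03 and 4.57 FPKM with CLE and fell by 2.66 ± 0.28 on the log2 scale from HFD (adjusted p = 5.6e-05). *Tlr8* was at 3.72, 6.01 and 7.79 FPKM and fell by 2.37 ± 0.23 (adjusted p = 3.2e-05). CLE mouse 11 was the highest and CLE mouse 2 the lowest of the group for both genes. *Tlr1* was at 1.40, 1.77 and 3.03 FPKM and fell by 1.79 ± 0.18 (adjusted p = 3.9e-05), with the same mouse highest. *Tlr7*, at 2.61, 2.89 and 2.78 FPKM, fell by 1.52 ± 0.20 (adjusted p = 0.00019).

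*Tlr2*, at 2.54, 2.36 and 2.58 FPKM with CLE, fell by 1.11 ± 0.09 (adjusted p = 2e-05). *Tlr9*, at 1.91, 2.13 and 1.95 FPKM, fell by 1.02 ± 0.09 (adjusted p = 3e-05), and *Tlr6*, at 1.59, 1.63 and 1.81 FPKM, by 0.90 ± 0.13 (adjusted p = 0.0003). For these 3 genes the CLE mice lay close together. The call of *Tlr6* was lost over annotated rows alone, where its difference was -0.54 (adjusted p = 0.17).

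*Tlr4* and *Tlr3* were not called with CLE. *Tlr4* was at 11.3, 11.3 and 8.99 FPKM, all below the HFD mice, with a difference of -0.48 ± 0.13 (adjusted p = 0.015), below the fold limit. *Tlr3* was at 7.33, 7.73 and 8.04 FPKM, which overlapped the HFD mice, with a difference of 0.08 ± 0.07 (adjusted p = 0.46). The interval of 2 SE on either side ran from -0.07 to 0.23.

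With LU, again 7 receptors were called lower than with HFD, against 7.68% of all genes, and the median difference was -0.91 over the 9 receptors and 0.03 over all genes. In 8 receptors every LU mouse was below every HFD mouse, against 22.1% of all genes. *Tlr13* was at 3.06, 2.89 and 5.83 FPKM and fell by 2.17 ± 0.28 (adjusted p = 0.00038). *Tlr8* was at 8.22, 7.86 and 10.3 FPKM and fell by 1.81 ± 0.23 (adjusted p = 0.0003). *Tlr1* was at 2.31, 2.17 and 3.32 FPKM and fell by 1.53 ± 0.18 (adjusted p = 0.00022). LU mouse 8 was the highest of its group for these 3 genes.

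*Tlr7* was at 4.65, 3.80 and 3.79 FPKM with LU and fell by 1.09 ± 0.20 (adjusted p = 0.0026). *Tlr2*, at 2.72, 2.99 and 3.35 FPKM, fell by 0.91 ± 0.09 (adjusted p = 0.00014). *Tlr6*, at 1.64, 1.78 and 2.19 FPKM, fell by 0.81 ± 0.13 (adjusted p = 0.001), and over annotated rows alone its difference was -0.53 (adjusted p = 0.19). *Tlr9*, at 2.54, 2.41 and 2.66 FPKM, fell by 0.78 ± 0.09 (adjusted p = 0.00025), and its groups lay far apart for their spread.

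*Tlr4* ranged more widely with LU, at 10.1, 12.7 and 8.77 FPKM, with a difference of -0.50 ± 0.13 (adjusted p = 0.017), below the fold limit. Without LU mouse 3 the difference was -0.63 and *Tlr4* was called, which made 8 receptors. *Tlr3*, at 7.62, 7.55 and 7.41 FPKM, differed by 0.05 ± 0.07 (adjusted p = 0.66).

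**Figure D3:**
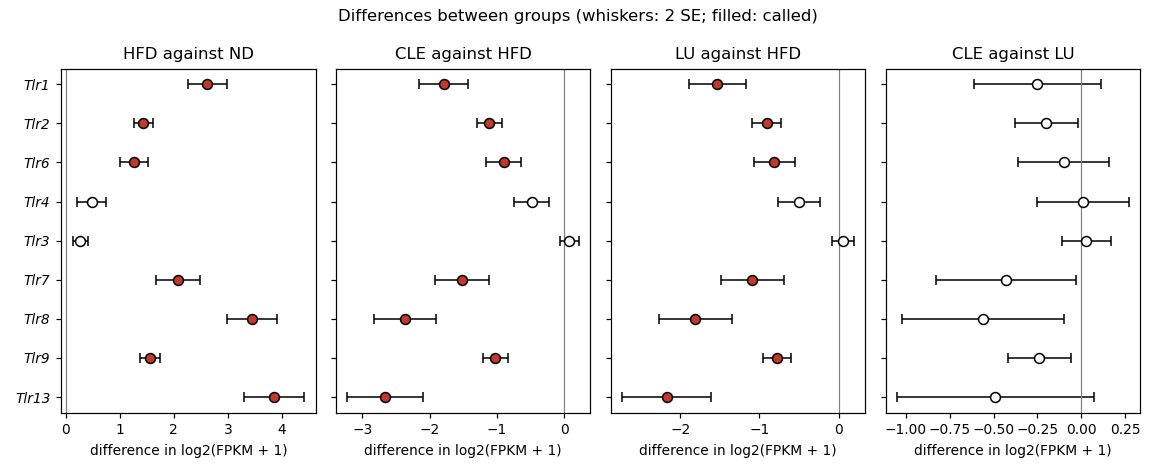
Differences in log2(FPKM + 1) of the 9 receptors (horizontal axes, a different range in each panel) in 4 comparisons, with whiskers of 2 SE on either side and filled points for called genes. In each comparison with HFD 7 points are filled, and none in CLE against LU.

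CLE and LU are a plant extract and one flavone given at different shares of the diet, so their doses are not matched. No receptor was called between them in limma, where 0.0078% of all genes were called in either direction. At an unadjusted p under 0.05, 3 receptors differed, *Tlr9* (-0.24 ± 0.09), *Tlr8* (-0.56 ± 0.23) and *Tlr2* (-0.20 ± 0.09), and their adjusted p was 0.9. The same limit was passed by 5.21% of all genes. In 4 receptors (*Tlr2*, *Tlr7*, *Tlr8* and *Tlr9*) every CLE mouse was below every LU mouse, against 6.29% of all genes. The intervals of 2 SE on either side ran from -1.05 to 0.08 for *Tlr13* and from -1.01 to -0.11 for *Tlr8*. For *Tlr3* the interval was narrow, from -0.12 to 0.18.

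Compared with ND, CLE mice had 3 receptors called higher, against 2.11% of all genes. These were *Tlr13* (1.19 ± 0.28, adjusted p = 0.037), *Tlr8* (1.08 ± 0.23, adjusted p = 0.023) and *Tlr1* (0.83 ± 0.18, adjusted p = 0.025). These calls depended on single mice: no receptor was called without ND mouse 2, ND mouse 4, CLE mouse 4 or CLE mouse 11. *Tlr9* (0.54 ± 0.09, adjusted p = 0.015) and *Tlr3* (0.35 ± 0.07, adjusted p = 0.025) were past the adjusted p but below the fold limit. In 8 receptors, with *Tlr4* as the exception, every CLE mouse was above every ND mouse, against 13.2% of all genes.

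LU mice had 5 receptors called higher than ND, against 4.98% of all genes. These were *Tlr13* (1.68 ± 0.28, adjusted p = 0.004), *Tlr8* (1.64 ± 0.23, adjusted p = 0.0016), *Tlr1* (1.09 ± 0.18, adjusted p = 0.0033), *Tlr7* (0.99 ± 0.20, adjusted p = 0.009) and *Tlr9* (0.78 ± 0.09, adjusted p = 0.0012). These calls also depended on the fit: 2 receptors were called without the letter R, with ND mouse 2 alone in its group, 2 with the mouse number as a block, and 4 over the highest row, where *Tlr8* was lost (0.35, adjusted p = 0.70). *Tlr2*, *Tlr6* and *Tlr3* were past the adjusted p with differences of 0.52, 0.47 and 0.32, below the fold limit. Every LU mouse was above every ND mouse in 8 receptors, again all but *Tlr4*, against 18.5% of all genes. *Tlr4* differed from ND by -0.01 ± 0.13 with CLE and by -0.02 ± 0.13 with LU.

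Macrophage genes moved with the receptors, as did some neutrophil and mast cell genes given further on. *Adgre1*, which encodes the surface marker F4/80, was at 7.80, 11.5 and 7.34 FPKM in ND mice, at 164, 131 and 143 FPKM in HFD mice, at 15.9, 20.1 and 31.9 FPKM in CLE mice and at 33.3, 30.7 and 43.0 FPKM in LU mice. *Cd68*, a lysosomal protein of macrophages, ran from 12.6 to 16.2 FPKM with ND and from 237 to 285 FPKM with HFD, and *Csf1r*, the receptor of their growth factor, from 21.0 to 32.6 FPKM and from 134 to 149 FPKM. CLE mouse 11 and LU mouse 8, the highest of their groups for *Tlr13*, *Tlr8* and *Tlr1*, were also the highest of their groups for *Adgre1* and *Cd68*. Not every macrophage gene did so: *Csf1r* was highest in LU mouse 2 (58.9 FPKM, against 57.1 FPKM in LU mouse 8), and *Cd163* was lowest of its group in CLE mouse 11 (13.0 FPKM) and LU mouse 8 (16.3 FPKM). The 8 macrophage genes listed summed to 321 to 493 FPKM with ND and 2176 to 2503 FPKM with HFD. With CLE they summed to 572 to 828 FPKM and with LU to 883 to 1010 FPKM, and none was at 0 in any group. *Lyz2* made up most of these sums (means 289 FPKM with ND and 1667 FPKM with HFD). Of the 8, 6 were called higher with HFD and lower with CLE and with LU, while *Mertk* and *Cd163* were not. Their part in the receptor differences was not tested beyond the values that follow.

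The 5 neutrophil genes summed to 6.90 to 15.7 FPKM with ND and to 73.9 to 123 FPKM with HFD. With CLE they summed to 14.4 to 28.4 FPKM and with LU to 22.9 to 55.1 FPKM. Of 3 tested, 2 were called higher and 1 lower with HFD, 2 lower with CLE and 2 lower with LU. The sums were mostly *S100a8* (means 10.2 FPKM with ND and 101 FPKM with HFD), while *S100a9* had means of 1.42 and 0.381 FPKM. *Ly6g*, their defining gene, was under 0.05 FPKM in all 12 libraries. The summed levels of 4 B cell genes (1.33 to 2.32 FPKM) and 5 T cell genes (1.81 to 3.85 FPKM) were low in HFD mice. The 6 dendritic cell genes summed to 61.5 to 77.5 FPKM with ND and to 54.4 to 57.1 FPKM with HFD. *Bst2* made up most of these sums (means 45.7 FPKM with ND and 38.9 FPKM with HFD). Of 4 tested, *Clec9a* was called higher (0.62, adjusted p = 0.011). *Flt3* (0.54, adjusted p = 0.0013) and *Zbtb46* (-0.58, adjusted p = 0.024) were not called and *Bst2* (-0.21, adjusted p = 0.50) did not pass the test. Of 4 mast cell genes, 3 were called higher and 1 lower with HFD, 3 lower with CLE and 3 lower with LU. Over all genes, 14.9% were called higher with HFD, 10.2% lower with CLE and 7.68% lower with LU. The 5 genes of adipocytes, the defining cells of the labelled tissue, summed to 25211 to 26767 FPKM with ND and 15146 to 17063 FPKM with HFD. Most of this sum was *Fabp4* (means 19732 and 10999 FPKM). With HFD 4 of the 5 were called lower and 1 higher, and the mean of *Lep* was 248 FPKM with ND and 1245 FPKM with HFD. Of the other lists, called genes with HFD were 0 of 4 for endothelial cells and 0 of 4 for adipose progenitors. They were 3 of 4 lower for mesothelial cells and 1 of 4 lower for liver. The share of all genes called lower with HFD is not at hand, so the counts called lower cannot be set against it. The summed skeletal muscle and epididymis genes stayed under 12 FPKM in each library.

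Across the 12 libraries, the log2 level of 7 receptors followed the mean log2 level of the 8 macrophage genes with Pearson's r from 0.96 (*Tlr6*) to 0.99 (*Tlr8* and *Tlr1*), and r was 0.67 for *Tlr4* and 0.56 for *Tlr3*. The HFD mice stand apart on both measures. Over the 9 libraries of the other groups, r was 0.99 for *Tlr8*, 0.88 for *Tlr6*, 0.87 for *Tlr3* and -0.22 for *Tlr4*. The points share the diet groups and the scaling of each library, so these are descriptions.

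**Figure D4:**
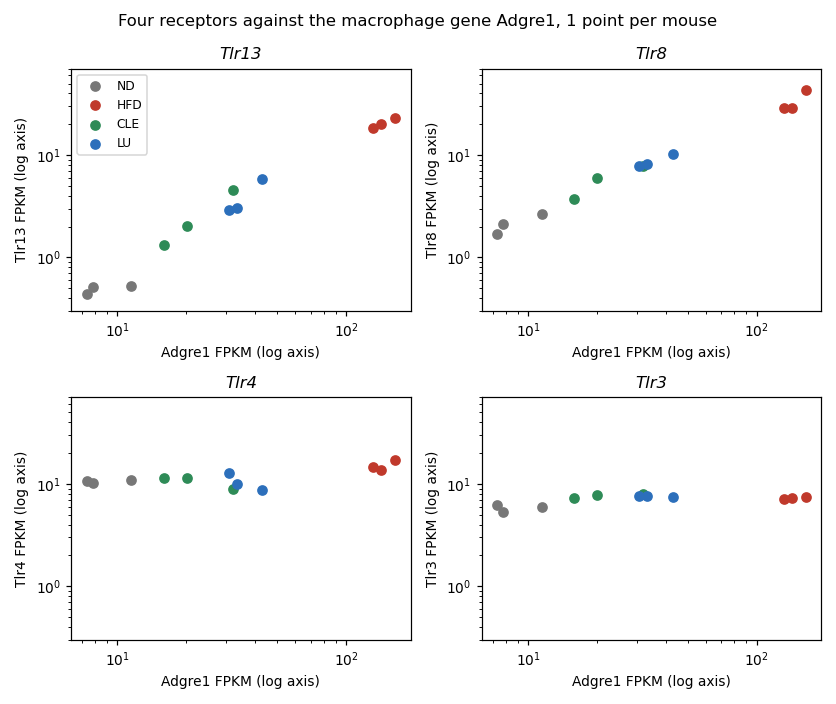
FPKM of Tlr13, Tlr8, Tlr4 and Tlr3 (vertical log axes, the same range) against FPKM of the macrophage gene Adgre1 (horizontal log axes), 1 point per mouse, colored by group. Tlr13 and Tlr8 climb with Adgre1 from ND through CLE and LU to HFD, while Tlr3 and Tlr4 stay nearly level.

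Each receptor was also taken relative to the macrophage genes, by subtracting the mean log2 level of the 8 genes in each library. On this scale *Tlr13* (1.48 ± 0.22) and *Tlr8* (1.08 ± 0.19) were higher with HFD than with ND, and 0.679% of all genes were called higher. *Tlr1* (0.25 ± 0.18, adjusted p = 0.17) and *Tlr7* (-0.29 ± 0.19, adjusted p = 0.14) did not pass the test. With a pseudocount of 0.1 in place of 1, *Tlr1* was called higher (1.09, adjusted p = 6.4e-05), *Tlr13* stood at 2.61, and *Tlr9* lost its call (-0.36, adjusted p = 0.075). *Tlr3*, *Tlr4*, *Tlr6*, *Tlr2* and *Tlr9* were lower, with differences from -2.09 to -0.81, as were 97.1% of all genes. Relative to *Csf1r*, *Adgre1* and *Cd68* alone, *Tlr13* (0.39, adjusted p = 0.17) and *Tlr8* (-0.01, adjusted p = 0.97) did not pass and *Tlr1* (-0.84) and *Tlr7* (-1.39) were called lower. No share of all genes called lower is at hand for that scale, so these calls cannot be read as particular to the receptors. The relation to macrophage genes thus depended on which of them were used and on the pseudocount. The mean of the 8 includes *Mertk* (21.1 FPKM with ND and 23.6 FPKM with HFD) and *Cd163* (15.8 and 18.2 FPKM), which changed little. A gene that rose like the mean of the other 6 is therefore higher on this scale by construction. The same holds in the other direction for CLE and LU against HFD.

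With CLE against HFD on the scale of the 8 genes, *Tlr13* (-1.11) and *Tlr8* (-0.82) were called lower, against 0.64% of all genes, and *Tlr3* (1.63), *Tlr4* (1.06) and *Tlr6* (0.65) higher, against 94.6%. With LU against HFD, *Tlr13* (-0.95) and *Tlr8* (-0.59) were called lower, against 0.499% of all genes, and *Tlr3* (1.27) and *Tlr4* (0.72) higher, against 92.7%. Relative to the 3 genes alone, the calls of *Tlr13* and *Tlr8* were lost in both comparisons. *Tlr2* (1.22), *Tlr7* (0.82) and *Tlr9* (1.31) were then called higher with CLE, and *Tlr2* (0.89), *Tlr6* (1.00), *Tlr7* (0.72) and *Tlr9* (1.03) with LU. No share of all genes is at hand relative to the 3 genes. Relative to the 8 genes nearly all genes were already called higher, so these calls cannot be read as particular to the receptors. On the scale of the 8 genes, the LU call of *Tlr8* also ended without the letter R (-0.54), without HFD mouse 12 (-0.44) and without LU mouse 2 (-0.54), and that of *Tlr4* without LU mouse 3 (0.51). The CLE call of *Tlr6* ended with a pseudocount of 0.1 (0.41), without HFD mouse 15 (0.57) and without CLE mouse 2 (0.54), and *Tlr9* was called higher with CLE (0.62) without HFD mouse 18 or CLE mouse 11. No receptor was called between CLE and LU on either scale.

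The genes whose log2 levels ran most like each receptor over the 12 libraries were as follows, with Pearson's r over those 12. For *Tlr1* they were *C3ar1* (r = 0.999), *Cd180* (0.998) and *Lipa* (0.998), and for *Tlr13* *Lipa* (0.999), *Cd180* (0.998) and *Pld3* (0.998). For *Tlr8* they were *Adgre1* (0.996), *Tyrobp* (0.995) and *P2ry6* (0.995), and for *Tlr7* *Itga4* (0.985), *Slc35f5* (0.984) and *Csf1r* (0.980). *Tlr2* ran most like *Snx5* (0.995), *C1qc* (0.992) and *Ptpro* (0.991), *Tlr9* like *Card9* (0.989), *Arap1* (0.988) and *Pld4* (0.987), and *Tlr6* like *Scamp5* (0.988), *Ctsb* (0.986) and *Slc41a2* (0.984). *Tlr3* was matched by *Synpo2* (0.983), *Tdrd7* (0.970) and *Ehd3* (0.947), and *Tlr4* by *Brwd3* (0.928), *Klhl28* (0.922) and *Lgi2* (0.905). Among the 7 receptors other than *Tlr3* and *Tlr4*, r of the 21 pairs ran from 0.94 to 0.998. The HFD mice stand apart from the rest in the levels of the 7.

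Of the 6 genes listed as accessory receptors, 5 were called higher with HFD, and 3 lower with CLE and 3 with LU. The median differences of the 6 were 1.22, -0.87 and -0.65. For this list and those below, the shares over all genes were 14.9% called higher with HFD, 10.2% lower with CLE and 7.68% lower with LU. *Cd180*, a relative of *Tlr4* without a signaling domain, was at 1.25, 1.20 and 0.96 FPKM with ND and at 23.8, 20.7 and 24.4 FPKM with HFD, and rose by 3.49 ± 0.25 (adjusted p = 1.3e-06). It fell by 2.36 with CLE and by 1.98 with LU. Its partner *Ly86* rose by 1.71 ± 0.14 and fell by 1.22 with CLE and by 0.91 with LU. *Ly96*, which encodes MD-2, the partner of TLR4, rose by 0.73 ± 0.14 (adjusted p = 0.0011), and its differences with CLE (-0.33, adjusted p = 0.083) and LU (-0.08, adjusted p = 0.72) did not pass the test. *Lbp*, the lipopolysaccharide binding protein, rose by 1.73 ± 0.28 with HFD, and did not pass with CLE (-0.69, adjusted p = 0.078) or LU (-0.40, adjusted p = 0.32).

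Of the 6 chaperones and trafficking proteins, 3 were called higher with HFD, 3 lower with CLE and 2 lower with LU (medians 0.63, -0.54 and -0.36). *Unc93b1*, which carries the endosomal receptors to their compartment, was at 40.9, 45.9 and 38.8 FPKM with ND and at 134, 124 and 136 FPKM with HFD. It rose by 1.63 ± 0.12 (adjusted p = 1.5e-06) and fell by 1.16 with CLE and by 0.83 with LU. *Slc15a3*, an endolysosomal transporter of bacterial peptides, rose by 3.68 ± 0.37 and fell by 2.23 and 1.69, and *Slc15a4*, its relative, rose by 0.69, fell by 0.69 with CLE and differed by -0.42 with LU (adjusted p = 0.061). *Cnpy4*, a chaperone of surface receptors, differed by 0.57 with HFD (adjusted p = 0.013), below the fold limit.

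Of the 10 proteases and nucleases of the endolysosome, which cut receptor ectodomains or digest nucleic acids, 8 were called higher with HFD and 8 lower with CLE and with LU (medians 1.87, -1.32 and -1.10). *Ctss*, cathepsin S, was at 25.5, 36.1 and 27.3 FPKM with ND and at 504, 417 and 387 FPKM with HFD, and rose by 3.84 ± 0.31 (adjusted p = 2.8e-06). *Ctsk*, cathepsin K, rose by 3.45 ± 0.27, *Lgmn*, the asparagine endopeptidase, by 2.75 ± 0.16 and *Pld3*, an exonuclease, by 2.73 ± 0.21. With CLE these 4 fell by 2.31, 2.46, 1.84 and 1.88, and with LU by 1.65, 1.92, 1.42 and 1.49. The genes not called were *Rnaset2a* (0.01) and *Rnaset2b* (0.19), near-identical copies whose reads can be shared.

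Of the 19 adaptors, kinases and ubiquitin ligases, 5 were called higher with HFD, 2 lower and 1 higher with CLE, and 2 lower with LU (medians 0.17, -0.14 and -0.15). Over all genes, 14.9% were called higher with HFD, 10.2% lower with CLE and 7.68% lower with LU. The counts called lower with CLE and LU were near these shares. *Ticam2*, which encodes TRAM, the adaptor that links TLR4 to TRIF, was at 1.68, 1.85 and 1.22 FPKM with ND and at 9.32, 7.21 and 8.33 FPKM with HFD. It rose by 1.85 ± 0.13 (adjusted p = 1e-06) and fell by 1.39 with CLE and by 1.13 with LU. *Ikbke*, a kinase of the interferon branch, rose by 1.44 ± 0.16 and fell by 1.16 and 1.06. *Irak4*, the kinase next to MyD88, rose by 0.87 ± 0.12, and its differences of -0.51 with CLE (adjusted p = 0.0067) and -0.35 with LU (adjusted p = 0.048) were below the fold limit. *Ticam1*, which encodes TRIF, rose by 0.94 ± 0.35 (adjusted p = 0.044), with ND mouse 3 at nearly 0. The gene called higher with CLE was *Irak2* (0.72 ± 0.10, adjusted p = 0.00033), named after its values were seen. Also named afterwards are genes that did not rise past the limits with HFD. *Irak2* (-0.50, adjusted p = 0.0017), *Peli1* (-0.48, adjusted p = 0.0039), *Traf6* (-0.36, adjusted p = 0.015) and *Tab3* (-0.33, adjusted p = 0.041) were lower but below the fold limit. *Myd88* (0.19, adjusted p = 0.083) did not pass the test.

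Of 5 tested restraining factors, *Pik3ap1*, which encodes the adaptor BCAP, rose by 3.45 ± 0.24 with HFD (adjusted p = 1e-06) and fell by 2.48 with CLE and by 2.02 with LU. *Sigirr*, a decoy receptor, differed by -0.45 with HFD (adjusted p = 0.049), below the fold limit, and was called higher with CLE (0.64, adjusted p = 0.015) and with LU (0.60, adjusted p = 0.026). *Socs1* (-0.68, adjusted p = 0.071) and *Irak3* (0.29, adjusted p = 0.024) were not called with HFD, and the list median was 0.19. Among the 3 interferon regulatory factors, *Irf5* was at 7.35, 7.11 and 6.4 FPKM with ND and at 35.9, 36.9 and 36.7 FPKM with HFD. It rose by 2.24 ± 0.14 (adjusted p = 7.4e-07) and fell by 1.61 with CLE and by 1.22 with LU. *Irf3* (-0.38, adjusted p = 0.004, below the fold limit) and *Irf7* (-0.27, adjusted p = 0.17) were not called.

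*Tlr5*, the flagellin receptor, had 5.33, 5.13 and 5.04 FPKM with ND and 4.17, 4.66 and 4.57 FPKM with HFD, so that every HFD mouse lay below every ND mouse. The difference of -0.17 ± 0.10 (adjusted p = 0.16) did not pass the test. With CLE (0.44, adjusted p = 0.0048) and LU (0.46, adjusted p = 0.0055) it was past the adjusted p against HFD but below the fold limit. *Tlr11* stayed between 0.29 and 0.74 FPKM and *Tlr12* between 0.07 and 0.45 FPKM, and neither was tested.

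**Figure D5:**
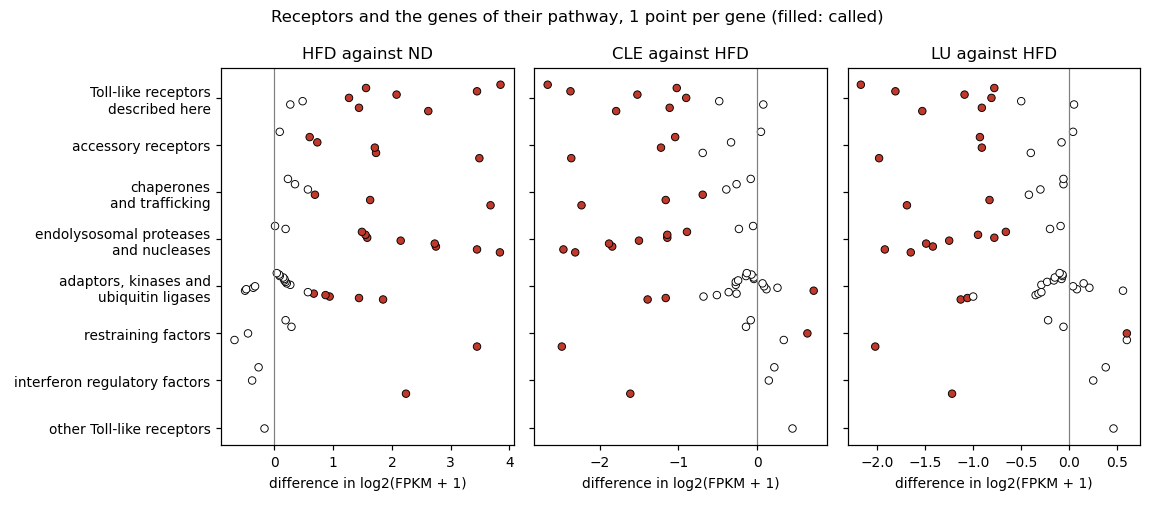
Differences in log2(FPKM + 1) (horizontal axes, a different range in each panel) of the 9 receptors and of the tested genes of 7 pathway lists, 1 point per gene, filled where called. The endolysosomal proteases and nucleases lie to the right with HFD and to the left with CLE and LU in 8 of 10 genes, while the adaptors, kinases and ubiquitin ligases sit around 0.

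The 4 libraries whose labels carry the letter R (LU mouse 2, CLE mouse 4 and ND mice 3 and 4) include no HFD mouse. Without them, 7 receptors were called higher with HFD, 7 lower with CLE and 7 lower with LU. That fit leaves ND mouse 2 as the only ND mouse, which is assumed to vary like the mice of the other groups, and 2 mice each with CLE and LU. Fitted as a covariate, the letter had 0 genes past an adjusted p of 0.05 (526 at an unadjusted p under 0.05, no receptor among them). Almost all of the *Tlr1* level (98.8%) came from rows assembled from the reads that share only part of the annotated exon chain, and for *Tlr6* this share was 44.9%. Over the single row with the highest mean, *Tlr1* still rose with HFD (1.8 ± 0.16) and *Tlr8* did too (2.45 ± 0.46).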

How the data were processed

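RNA-seq of eWAT from 12 mice in 4 groups of 3, grouped by the diet in the labels, was analysed. The authors prepared TruSeq libraries, sequenced them as pairs and deposited FPKM values from Cufflinks for 152210 transcript rows in 15 columns, of which 3 match no sample and were not used. Per the labels, CASAVA 1.8.2, Bowtie2 2.2.3, TopHat2 2.0.12 and Cufflinks 2.2.1 were run; the genome build is not given in the sources used here. MD4 heads 1 column, taken as ND mouse 4 from its number, the letter R and the header of a comparison. Columns of the authors' own comparisons, which hold a yes or no per transcript, were not used. The authors' count test was not repeated because the file holds FPKM.

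Rows with an Ensembl transcript, plain or with class code = or j, were summed by gene. The gene name was that of the transcript in GENCODE M21 or, where it was absent there, the name in the deposited table. For the 9 receptors (63 rows) both names gave the same sums. Positions came from GENCODE M21 (GRCm38), which held 76916 of the 78786 plain rows, 87.6% with identical ends. Gene totals were 438191 to 458413 FPKM, and r between mice of a group was 0.978 to 0.991 on the log2 scale. limma 3.58.1 in R 4.3.3 was fitted to log2(FPKM + 1) with 1 coefficient per group, for genes with at least 1 FPKM in at least 3 libraries, and p-values were adjusted by Benjamini-Hochberg over all genes of a contrast. The limma p-values set a difference between group means against the spread of mice within groups, pooled over the 4 groups. Single genes also had a two-sided exact permutation test.

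The receptors, the pathway and marker lists and the alternatives were chosen with earlier results of these data known. Named genes were the 9 receptors, the 4 genes of each pathway list with the largest change with HFD, the 3 genes most correlated with each receptor, and *Adgre1*, *Csf1r* and *Cd68*. Alternatives were a pseudocount of 0.1, no filter or a mean of 5 FPKM, 3 other scalings, moderation with a trend, a fit without the other groups, the letter R as a covariate or left out, annotated rows only, the single highest row, the adjusted p alone, each mouse left out, and the mouse number as a block. Figures were drawn with matplotlib 3.10.9, and tables made with pandas 2.3.3 (Python 3.11.15). Promoter windows came from RefSeq tables.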

Additional observations from a re-analysis of the deposited data

How the results depend on the processing

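The 7 receptors called with HFD, CLE or LU against HFD kept their direction under each alternative in which they were tested. *Tlr1* was not tested over annotated rows, and *Tlr1*, *Tlr2*, *Tlr6*, *Tlr7* and *Tlr9* were not tested with a filter on a mean of 5 FPKM. Of 1332 receptor differences recomputed, 1253 kept direction and side of the thresholds, 43 lost a call, 16 gained one and 20 changed sign. That filter called 2 with HFD, 2 with CLE, 2 with LU, and 2 for LU against ND. Calls against ND were the least stable. For CLE against ND, 1 was called with no filter, 0 with only the groups compared, 0 without the letter R, 1 over annotated rows, 1 over the highest row and 5 by adjusted p alone, and leaving out 1 mouse gave 0 to 3. For LU against ND, 2 were called without the letter R and 8 by adjusted p alone. Without the letter R the ND group is 1 mouse, so these counts rest on the spread of the other groups. With the mouse number as a replicate block, which leaves 2 shared numbers per pair of groups, 0 were called for CLE and 2 for LU against ND. The deviations of same-numbered mice had r of -0.10 and -0.0028 for ND with CLE and of 0.10 and 0.19 for ND with LU. With 2 pairs each and no label said to tie a mouse number to a litter or day, the data do not settle whether the numbers pair the mice. The column headers with the letter R also share a further number whose meaning is not given. In each pair of ND with LU, only 1 mouse carries it.

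The sign changes were in differences that were not called. Over the highest row, *Tlr3* gave -0.02 (CLE against HFD) and, for CLE against LU, *Tlr3* -0.11, *Tlr6* 0.20 and *Tlr8* 0.14. *Tlr4* for CLE against LU gave -0.06 without the letter R, -0.01 over annotated rows, and -0.10 to 0.14 with 1 mouse left out. Against ND, *Tlr4* with CLE gave 0.01 with equal totals, 0.00 with median ratios, 0.01 with the letter R as a covariate, 0.12 with the replicate block and -0.06 to 0.09 with 1 mouse left out, and with LU 0.06 without the letter R, 0.10 with the replicate block and -0.15 to 0.09 with 1 mouse left out.

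Relative to macrophage genes, 16 of 540 recomputed values changed sign. With *Csf1r*, *Adgre1* and *Cd68* alone, *Tlr1* gave -0.84 (HFD against ND), 0.55 (CLE against HFD) and 0.27 (LU against HFD), *Tlr8* -0.01 (HFD against ND), and, for CLE against LU, *Tlr7* 0.10 and *Tlr13* 0.04. With a pseudocount of 0.1, *Tlr7* gave 0.08 (HFD against ND) and -0.16 (CLE against HFD) and *Tlr1* -0.02 (CLE against LU). With 1 mouse left out, *Tlr7* (CLE against HFD) ran from -0.09 to 0.21 and, for CLE against LU, *Tlr1* from -0.06 to 0.17, *Tlr2* from -0.01 to 0.20, *Tlr9* from -0.02 to 0.17 and *Tlr13* from -0.44 to 0.04. The causes were not tested. Depth is unknown, so no limit in reads can be given.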
